A study of Mus musculus with 31 samples.

Results

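Prostaglandin synthesis and signalling was followed through 10 genes of the mouse kidney, chosen by symbol, among 23509 genes in the deposited count files. They are Pla2g4a, Ptgs1, Ptgs2, Ptges, Ptgds, the receptor genes Ptger1, Ptger2, Ptger3 and Ptger4, and Hpgd. All 10 passed the filter on low counts that left 15185 genes for testing. Whole-kidney RNA came from 31 mice. Of these, 12 were Pcy/CD1 mice injected with phosphate-buffered saline (PBS), 14 were Pcy/CD1 mice given 25 mg kg−1 of RGLS4326, and 5 were untreated wild-type CD1 mice of the same age. Pcy/CD1 mice carry the pcy mutation, a recessive change on the CD1 background that gives slowly progressing cystic kidney disease. RGLS4326 is a short, chemically modified oligonucleotide complementary to the seed of miR-17. Injections were subcutaneous, began at 5 weeks of age and ran for 25 weeks, and kidneys were taken at 30 weeks. The dose labels of the samples give weekly PBS and monthly RGLS4326, and the paper likewise describes weekly PBS and a monthly RGLS4326 group. The treatment protocol, taken alone, can be read as monthly for both. On the schedule of the labels and the paper, the oligonucleotide and the injection interval cannot be told apart. Wild-type mice were not injected. Bulk tissue was measured, so that fewer cells of a type and less RNA per cell cannot be told apart in any value below.

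Prostaglandins are made on demand from membrane lipid. Cytosolic phospholipase A2, encoded by Pla2g4a, frees arachidonic acid, the cyclooxygenases encoded by Ptgs1 and Ptgs2 turn it into prostaglandin H2, and terminal synthases shape the product, Ptges making prostaglandin E2 and Ptgds prostaglandin D2. Prostaglandin E2 acts through the receptors EP1 to EP4, of which EP2 and EP4 raise cyclic AMP, EP3 mainly lowers it and EP1 acts through calcium. Hpgd encodes the dehydrogenase that begins prostaglandin breakdown. In the kidney these lipids act on salt and water transport, renin release and blood flow, and cyclic AMP is known to drive fluid secretion into cysts.

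The mature sequence of the microRNA that RGLS4326 binds is shown because the treatment is aimed at it, with the seed (bases 2 to 8) in capitals. It lies on the plus strand of chromosome 14 (RefSeq, GRCm38.p6, 115043684 to 115043706).
mmu-miR-17-5p: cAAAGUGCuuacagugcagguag
The matching 7 letters in a target, GCACTTT, were absent from the longest annotated 3′UTR of all 10 genes (GENCODE vM21 on GRCm38, 162 bases for Ptgds to 3220 bases for Ptger1). Of all 21037 genes with an annotated 3′UTR, 11.8% held them. The absence says only that these letters are not in those stretches. The microRNA itself is not measured by counts of polyadenylated RNA.

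Promoter windows running from 250 bases before to 50 bases after the start were listed for 9 of the 10 genes. Those of Ptgs1, Ptgds and Ptger4, which were higher in cystic kidneys, and of Ptgs2, which was not, are shown 5′ to 3′ on the gene's own strand. Capitals mark a match on either strand to CGTCA (part of a cyclic AMP response element), TGANTCA (the AP-1 motif) or GGGCGG (a GC box, CCGCCC on the other strand). TATAAA was searched as well.
Ptgs1: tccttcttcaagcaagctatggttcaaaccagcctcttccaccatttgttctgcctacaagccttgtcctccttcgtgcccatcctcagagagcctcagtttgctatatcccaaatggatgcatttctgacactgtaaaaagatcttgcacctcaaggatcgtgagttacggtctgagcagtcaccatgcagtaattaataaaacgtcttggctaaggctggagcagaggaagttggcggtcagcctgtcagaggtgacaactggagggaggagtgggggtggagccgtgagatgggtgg
Ptgds: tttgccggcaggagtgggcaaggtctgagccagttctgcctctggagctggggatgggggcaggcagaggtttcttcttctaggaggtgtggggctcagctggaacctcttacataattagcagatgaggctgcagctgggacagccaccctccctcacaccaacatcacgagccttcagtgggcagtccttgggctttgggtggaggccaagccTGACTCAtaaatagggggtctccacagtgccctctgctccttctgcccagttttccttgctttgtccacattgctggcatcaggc
Ptger4: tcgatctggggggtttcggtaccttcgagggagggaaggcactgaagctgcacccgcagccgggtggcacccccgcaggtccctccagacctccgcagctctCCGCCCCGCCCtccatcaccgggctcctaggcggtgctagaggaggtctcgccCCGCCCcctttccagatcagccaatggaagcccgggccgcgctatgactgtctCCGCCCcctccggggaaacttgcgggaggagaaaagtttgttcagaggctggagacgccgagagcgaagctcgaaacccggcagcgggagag
Ptgs2: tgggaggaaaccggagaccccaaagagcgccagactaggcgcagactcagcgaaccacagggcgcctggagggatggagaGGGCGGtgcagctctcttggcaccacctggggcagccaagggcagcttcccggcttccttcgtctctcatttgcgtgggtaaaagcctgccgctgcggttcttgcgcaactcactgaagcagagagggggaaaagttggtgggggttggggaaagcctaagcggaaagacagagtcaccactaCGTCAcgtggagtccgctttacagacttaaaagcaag
The windows lie, in the RefSeq table for GRCm38.p6, on chromosome 2 from 36230176 to 36230475 (Ptgs1, plus strand), chromosome 2 from 25469700 to 25469999 (Ptgds, minus strand), chromosome 15 from 5244138 to 5244437 (Ptger4, minus strand) and chromosome 1 from 150099781 to 150100080 (Ptgs2, plus strand). The Ptgds window held 1 AP-1 match, whose first base is 35 bases before the start, the Ptger4 window held 4 GC boxes, of which the first 2 overlap, and the Ptgs1 window held none of the 4 motifs. The Ptgs2 window held 1 GC box and 1 CGTCA. Over all 32851 promoter windows, CGTCA was found in 20.8%, the AP-1 motif in 7.81%, the GC box in 35.7% and TATAAA in 13.6%. The 3 windows shown for Ptgs1, Ptgds and Ptger4 therefore share no motif among those searched. Of the other genes called higher in cystic kidneys, Pla2g4a has windows not shown here, and Ptger1 has none listed. Such matches are descriptions of letters rather than sites of binding.

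Each library held 14892524 to 27459962 counts in genes. The group medians were 19961466 in wild type, 20562148 with PBS and 19898000 with RGLS4326, and wild type had the narrowest range, from 19449688 to 20733811. Values are given as counts scaled to a common library size (CPM). Library names carry sample numbers that start again within a group, which gives 3 numbering series in each group, treated here as possible batches. The series were numbered by their order within each group, and those of different groups were matched by that order alone. Whether matched series were processed together was not tested. By series, the PBS group splits into 4, 4 and 4 mice, the RGLS4326 group into 4, 5 and 5, and the wild-type group into 2, 2 and 1. Wild-type mice 3 and 4, which form the second series, were unusually alike, with a chi-square per gene of 2.69 where sampling noise alone gives about 1 and the 9 other wild-type pairs gave 16.05 to 22.6. They differed by more than that noise. Whether they come from 1 animal was not tested. The labels list them as separate mice, so they are counted as such in every wild-type n of 5 and its SD, and if they were 1 animal the second series would hold 1 wild-type animal. Results were also computed without either and without both. The injury marker Lcn2, which encodes Ngal, read 0.944 to 11.2 CPM in wild type, 205 to 1205 CPM with PBS and 2.76 to 607 CPM with RGLS4326. The lowest treated value belongs to RGLS4326-treated mouse 9, whose Lcn2 lies within the wild-type range.

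The first comparison asked how the pathway differs between cystic and wild-type kidneys. Of the 10 genes, 5 were higher in PBS-treated Pcy/CD1 mice and 0 were lower past both thresholds, which were 0.05 for the adjusted p and 0.5 for the size of the log2 fold change (quasi-likelihood test of edgeR, Benjamini-Hochberg adjustment over all genes tested). Over all genes, 24.6% were called higher and 17.8% lower by the same rule, so calls were common in this comparison. With the adjusted p alone, 6 genes were higher and 0 lower, against 37.7% and 36.6% of all genes. The median log2 fold change of the 10 genes was 0.69, and that of all genes was 0.01. The genes called were Pla2g4a, Ptgs1, Ptgds, Ptger1 and Ptger4.

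**Figure D1:**
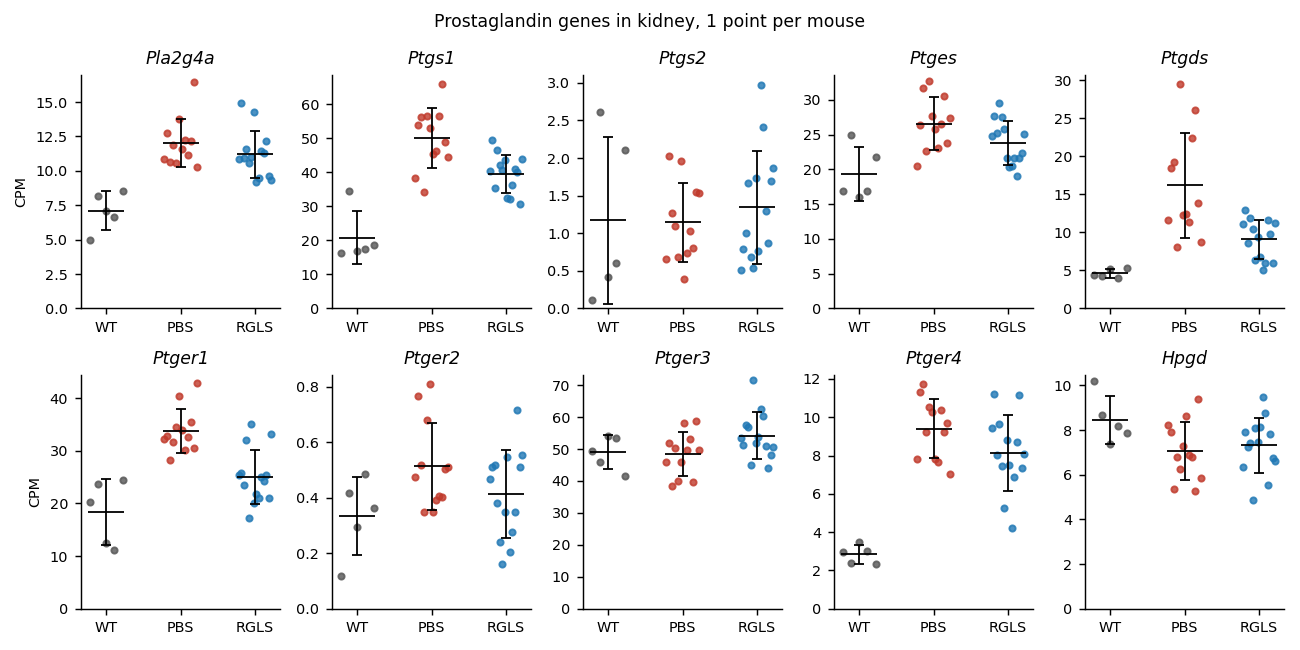
CPM of each of the 10 genes (vertical axes, each from 0) in wild-type (WT), PBS-treated and RGLS4326-treated (RGLS) kidneys, with 1 point per mouse, horizontal bars at the mean and error bars of 1 SD. All PBS-treated mice lie above all wild-type mice for Pla2g4a, Ptgds, Ptger1 and Ptger4. These 2 groups overlap for Ptgs1, Ptgs2, Ptges, Ptger2, Ptger3 and Hpgd. The share of all genes with separate groups was not computed for any comparison.

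At the head of the pathway, Pla2g4a read 4.95, 8.20, 7.10, 6.66 and 8.55 CPM in wild-type mice 1 to 5. With PBS it ran from 10.3 to 16.4 CPM with a median of 11.7. Every PBS-treated mouse lay above every wild-type mouse. The means were 12.03 ± 1.71 CPM (n = 12, SD) and 7.09 ± 1.42 CPM (n = 5, SD), a log2 fold change of 0.76 (SE (SE) 0.12, adjusted p = 2.53e-06, quasi-likelihood test of edgeR). Within numbering series 3, which holds 1 wild-type mouse, the difference was 0.57 and did not pass (adjusted p = 0.114, same test).

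Of the cyclooxygenase genes, Ptgs1, which is expressed constitutively in collecting duct and other renal cells, was higher in cystic kidneys. It read 16.3, 34.6, 16.98, 17.4 and 18.7 CPM in wild-type mice 1 to 5 and from 34.3 to 66.1 CPM, with a median of 51.0, with PBS. Wild-type mouse 2 stood apart from the other 4, and 11 of 12 PBS-treated mice exceeded even its value. The log2 fold change was 1.27 (SE 0.15, adjusted p = 3.72e-08, quasi-likelihood test of edgeR), and without wild-type mouse 2 it was 1.53. Ptgs1 passed both thresholds within each numbering series, with log2 fold changes of 0.85, 1.56 and 1.55.

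Ptgs2, the inducible cyclooxygenase found in the macula densa and medullary interstitial cells, gave no such difference. Its raw counts were low, from 2 to 58 per mouse. It read 0.118, 2.61, 0.414, 0.605 and 2.11 CPM in the wild-type mice and from 0.398 to 2.03 CPM with a median of 1.06 with PBS, so the wild-type range enclosed that of the PBS-treated mice. The log2 fold change was −0.03 with an SE of 0.46, too wide to exclude a sizeable difference in either direction (adjusted p = 0.963, quasi-likelihood test of edgeR).

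Both terminal synthases were higher at the adjusted p, but by very different amounts. Ptgds read 4.36, 4.28, 5.21, 4.06 and 5.36 CPM in wild-type mice and from 8.13 to 29.5 CPM with a median of 13.2 with PBS. No PBS-treated mouse came down to the wild-type range, and the spread among cystic kidneys was wide, with a coefficient of variation of 42.8% against 12.6% in wild type. The fold change was 3.48, or 1.80 on the log2 scale (SE 0.28, adjusted p = 1.59e-06, quasi-likelihood test of edgeR), and it was 1.74, 1.84 and 1.75 in the 3 numbering series, passing in each. Ptges, which encodes the microsomal prostaglandin E synthase, averaged 19.3 ± 3.87 CPM (n = 5, SD) in wild type and 26.6 ± 3.77 CPM (n = 12, SD) with PBS. Its log2 fold change of 0.46 (SE 0.11) passed the adjusted p of quasi-likelihood test of edgeR, at 0.000528, but not the threshold on size. Within the numbering series it passed the adjusted p in series 2 alone (0.0074), the series of wild-type mice 3 and 4, and not in series 1 (0.240) or 3 (0.114, same test).

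Among the prostaglandin E2 receptors, Ptger4 showed the largest difference. It read 2.95, 2.38, 3.49, 3.03 and 2.35 CPM in wild-type mice and 7.05 to 11.7 CPM with a median of 9.47 with PBS. The groups were fully separate. The fold change was 3.31, or 1.73 on the log2 scale (SE 0.18, adjusted p = 6.65e-09, quasi-likelihood test of edgeR), and all 3 numbering series passed, at 1.91, 1.49 and 1.97. Ptger2, which signals through the same second messenger, was near the limit of detection, with 2 to 19 counts per mouse. It averaged 0.335 ± 0.140 CPM (n = 5, SD) in wild type and 0.513 ± 0.158 CPM (n = 12, SD) with PBS (log2 fold change 0.61, SE 0.30, adjusted p = 0.0665, quasi-likelihood test of edgeR).

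Ptger1, encoding the calcium-linked EP1, read 20.2, 23.6, 12.4, 11.2 and 24.5 CPM in wild-type mice and 28.2 to 42.8 CPM with a median of 32.6 with PBS. The groups did not overlap, and the closely alike wild-type mice 3 and 4 were the lowest. Its log2 fold change was 0.88 (SE 0.16, adjusted p = 1.34e-05, quasi-likelihood test of edgeR). By numbering series it was 0.51, 1.57 and 0.54, so the second series, whose wild-type mice are those 2, gave the widest difference, and the third did not pass (adjusted p = 0.0828, same test). The library kit keeps strand, but the strand setting used in counting is not given in the sources used here, so reads of overlapping genes on opposite strands may not be told apart. Ptger4 overlaps Ttc33 on the opposite strand, and Ttc33 was lower rather than higher with PBS, by −0.22 on the log2 scale (adjusted p = 0.000473, same test).

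Ptger3 encodes EP3, which opposes vasopressin in the thick limb and collecting duct. It averaged 49.0 ± 5.27 CPM (n = 5, SD) in wild type and 48.5 ± 6.76 CPM (n = 12, SD) with PBS, a log2 fold change of −0.01 with an SE of 0.099 (adjusted p = 0.898, quasi-likelihood test of edgeR). Hpgd, the catabolic enzyme, averaged 8.47 ± 1.08 CPM (n = 5, SD) and 7.05 ± 1.30 CPM (n = 12, SD), and its log2 fold change of −0.26 (SE 0.13) missed the threshold (adjusted p = 0.0662, same test). In 8 of 12 PBS-treated mice it lay below the lowest wild-type mouse.

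Because genes differ in length, levels were compared between genes as CPM per kilobase of exon (GENCODE vM21), which may differ from the authors' annotation. In wild type, Ptger3 came first at 8.61 ± 0.927 CPM per kb (n = 5, SD), followed by Ptgs1 at 5.35, Hpgd at 5.03, Ptges at 4.91, Ptger1 at 3.37 and Ptgds at 2.82. These neighbours overlapped between mice. Below a gap came Pla2g4a at 1.11 CPM per kb, Ptger4 at 0.427, Ptgs2 at 0.256 and Ptger2 at 0.0645. With PBS, Ptgs1 stood first at 12.9 ± 2.26 CPM per kb (n = 12, SD), followed by Ptgds at 9.82 ± 4.20 and Ptger3 at 8.52 ± 1.19, and the ranges of these 3 overlapped. With RGLS4326 the order began with Ptgs1 at 10.2 ± 1.43 CPM per kb (n = 14, SD) and Ptger3 at 9.52 ± 1.28, while Ptgds read 5.51 ± 1.59.

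**Figure D2:**
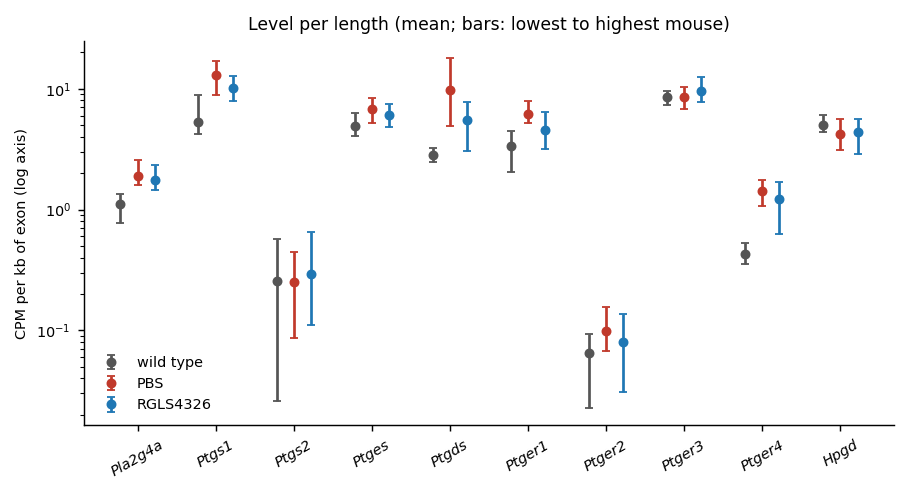
Level of each gene in CPM per kb of exon on a log axis, with a point at each group's mean and bars from the lowest to the highest mouse. Ptgds moves from 2.82 in wild type to 9.82 with PBS and 5.51 with RGLS4326, whereas Ptger3 stays between 8.52 and 9.52, and Ptgs2 and Ptger2 are lowest in every group.

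The second comparison asked how RGLS4326-treated kidneys differ from PBS-treated ones. It shares the PBS-treated mice with the first, so opposite signs in both are not independent of each other. Past both thresholds 1 gene was lower and 0 were higher, against 1.22% lower and 0.935% higher over all genes. That gene was Ptgds. With the adjusted p alone, 3 were lower (Ptgds, Ptgs1 and Ptger1) and 0 higher, against 6.66% and 9.15% of all genes. The median log2 fold change of the 10 genes was −0.18, and that of all genes was −0.0043.

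With RGLS4326, Ptgds ran from 5.01 to 12.9 CPM with a median of 9.62, compared with 8.13 to 29.5 CPM and a median of 13.2 with PBS. All 14 treated mice lay below the PBS median, and 5 lay below the lowest PBS-treated mouse, but the ranges overlapped. The means were 9.08 ± 2.62 CPM (n = 14, SD) and 16.2 ± 6.93 CPM (n = 12, SD). Ptgds fell by 0.83 on the log2 scale (SE 0.18, adjusted p = 0.00948, quasi-likelihood test of edgeR). It was lower in all 3 numbering series, by log2 fold changes of −0.37, −1.11 and −0.99 (adjusted p = 1, 0.237 and 0.188, same test). Within any one series 0 of all genes tested passed the adjusted p between RGLS4326 and PBS, so that missing it there does not set a gene apart. Leaving out any 1 of the 31 mice kept both thresholds.

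Ptgs1 ran from 30.9 to 49.5 CPM with a median of 40.5 with RGLS4326. All 14 treated mice lay below the PBS median of 51.0 CPM and 3 below the lowest PBS-treated mouse. Its log2 fold change was −0.34 (SE 0.10, adjusted p = 0.0325, quasi-likelihood test of edgeR), under the threshold on size, with −0.09, −0.40 and −0.49 in the numbering series. Leaving out 1 mouse kept the adjusted p under its threshold in 21 of 31 fits, and it was highest, at 0.0735, without PBS-treated mouse 10 (same test).

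Ptger1 ran from 17.2 to 35.0 CPM with a median of 24.6 with RGLS4326, and 11 of 14 treated mice lay below the lowest PBS-treated mouse at 28.2 CPM. The log2 fold change was −0.43 (SE 0.11, adjusted p = 0.0169, quasi-likelihood test of edgeR), again under the threshold on size. It was −0.23, −0.60 and −0.45 in the numbering series, and it still passed the adjusted p with any 1 mouse left out.

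The other 7 genes did not pass. Ptger4 averaged 8.12 ± 1.96 CPM (n = 14, SD) with RGLS4326 and 9.40 ± 1.54 CPM (n = 12, SD) with PBS, a log2 fold change of −0.21 (SE 0.12, adjusted p = 0.183, quasi-likelihood test of edgeR). Pla2g4a differed by −0.10 (SE 0.085, adjusted p = 0.377) and Ptges by −0.16 (SE 0.080, adjusted p = 0.145, same test). Ptger3 averaged 54.2 ± 7.28 CPM (n = 14, SD), and its log2 fold change of 0.16 (SE 0.073) did not pass either (adjusted p = 0.109, same test). Hpgd differed by 0.05 with an SE of 0.097. Ptgs2 differed by 0.20 with an SE of 0.33, and Ptger2 by −0.31 with an SE of 0.20.

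**Figure D3:**
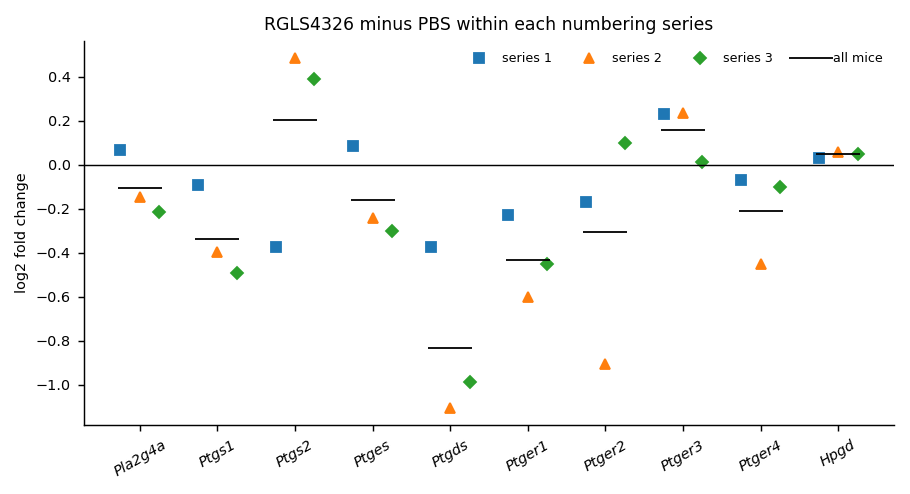
Log2 fold change of RGLS4326 minus PBS (vertical axis) for each gene within numbering series 1, 2 and 3 (symbols) and over all mice (black bars). Ptgds, Ptgs1 and Ptger1 are below 0 in all 3 series and nearest to 0 in series 1, at −0.37, −0.09 and −0.23.

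The third comparison set treated kidneys against wild type, sharing its mice with both others. Past both thresholds 4 genes were higher and 0 lower, against 20.3% higher and 11.3% lower over all genes. They were Pla2g4a, Ptgs1, Ptgds and Ptger4. With the adjusted p alone, Ptges and Ptger1 joined them, giving 6 higher and 0 lower, against 32.5% and 32.4% of all genes. Without wild-type mouse 3 or 4, Ptges (adjusted p up to 0.0703) and Ptger1 (adjusted p up to 0.0752) no longer passed and 4 genes were left. Without both mice the adjusted p was 0.219 for Ptges and 0.385 for Ptger1, and Ptges also missed without wild-type mouse 1 (adjusted p = 0.0574, all from the quasi-likelihood test of edgeR). Ptger4 was 1.52 higher on the log2 scale (SE 0.18, adjusted p = 1.49e-07, quasi-likelihood test of edgeR), and all 14 treated mice lay above all 5 wild-type mice. The same separation held for Pla2g4a, whose log2 fold change was 0.66 (SE 0.12, adjusted p = 3.16e-05, same test). Ptgs1 was 0.93 higher (SE 0.15, adjusted p = 5.63e-06) and Ptgds 0.97 higher (SE 0.27, adjusted p = 0.00255, same test). For Ptgds 13 of 14 treated mice exceeded the highest wild-type mouse, the exception being RGLS4326-treated mouse 9 at 5.01 CPM. That mouse also had the lowest treated Ptger4, at 4.19 CPM. Within numbering series 1, Ptgs1 missed the threshold (log2 fold change 0.76, adjusted p = 0.0525, same test), while Pla2g4a, Ptgds and Ptger4 passed. Within numbering series 2, only Ptgs1 passed, and within series 3 only Ptgs1 and Ptger4 did. Over all genes the calls were 4966, 372 and 2471 in the 3 series, against 4789 from all mice.

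**Figure D4:**
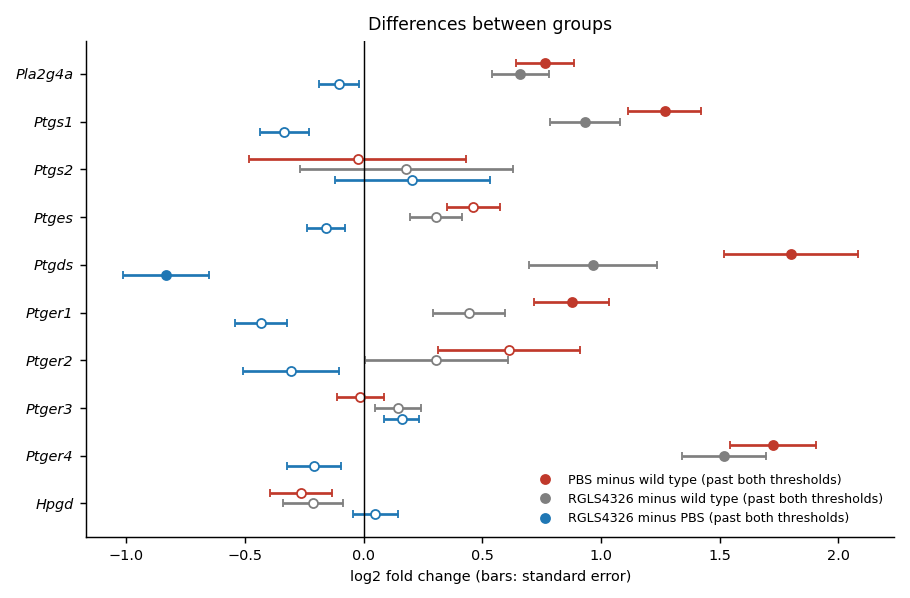
Log2 fold change of each gene (horizontal axis) with its SE for PBS minus wild type, RGLS4326 minus wild type and RGLS4326 minus PBS, where filled points passed both thresholds. Ptgds and Ptger4 lie furthest to the right for PBS minus wild type, at 1.80 and 1.73, and Ptgds is the only filled point to the left of 0, at −0.83.

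Whether the genes vary together between mice of one group was tested over the 26 Pcy/CD1 mice, on log2(CPM + 1) values with each group's mean removed and with mice permuted within groups. Of 55 pairs among the 10 genes and Lcn2, 13 passed an adjusted permutation p under 0.05 by Pearson's r, 11 positive and 2 negative, and 12 of them also passed by Spearman's rho. Without RGLS4326-treated mouse 9, 11 pairs passed, and Ptgs1 with Ptger4 (r = 0.50, adjusted permutation p = 0.0527) and Ptger3 with Ptger4 (r = −0.47, adjusted permutation p = 0.0742) did not. Ptgs1 and Ptgds varied together (r = 0.84, rho = 0.86, both with adjusted permutation p = 0.000183, and r = 0.83 without the 2 mice farthest from the median). Their raw permutation p of 1e-05 is the smallest that 100000 permutations can give. Ptgs1 also varied with Ptges (r = 0.70, rho = 0.71, adjusted permutation p = 0.00110 and 0.00176), and Ptgds with Ptger4 (r = 0.68, rho = 0.74, adjusted permutation p = 0.000412 and 0.000550). Ptger2 varied with Ptger4 (r = 0.64, rho = 0.62, adjusted permutation p = 0.00371 and 0.00862), although Ptger2 rests on 19 counts or fewer per mouse. Within the numbering series, of 8, 9 and 9 Pcy/CD1 mice and again with group means removed, all 13 pairs kept their sign in each. For Ptgs1 and Ptgds r was 0.97, 0.72 and 0.92 in the 3 series. For Ptgs1 and Ptges it was 0.84, 0.75 and 0.37, and for Ptgds and Ptger4 it was 0.78, 0.68 and 0.68.

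Lcn2, the injury marker, varied with several of these genes. It correlated with Ptgds (r = 0.72, rho = 0.87), Ptgs1 (r = 0.66, rho = 0.79) and Ptger4 (r = 0.74, rho = 0.66), each with an adjusted permutation p of 0.00357 or lower. Without RGLS4326-treated mouse 9, r was 0.90 for Ptgds, 0.85 for Ptgs1 and 0.59 for Ptger4. By series, r of Lcn2 with Ptgds was 0.92, 0.67 and 0.91. Hpgd went the other way (r = −0.55, rho = −0.57, adjusted permutation p = 0.0170 and 0.0122). Lcn2 itself did not pass between RGLS4326 and PBS (log2 fold change −0.81, SE 0.41, adjusted p = 0.148, quasi-likelihood test of edgeR), and its part in the lower Ptgds of treated mice was not tested. Ptger3 varied with Hpgd (r = 0.68, rho = 0.65, adjusted permutation p = 0.00299 and 0.00433). It went against Ptger4 by Pearson's r only (r = −0.51, rho = −0.41, adjusted permutation p = 0.0314 and 0.126). Against Lcn2 it passed by Spearman's rho only (r = −0.46, rho = −0.50, adjusted permutation p = 0.0748 and 0.0467).

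**Figure D5:**
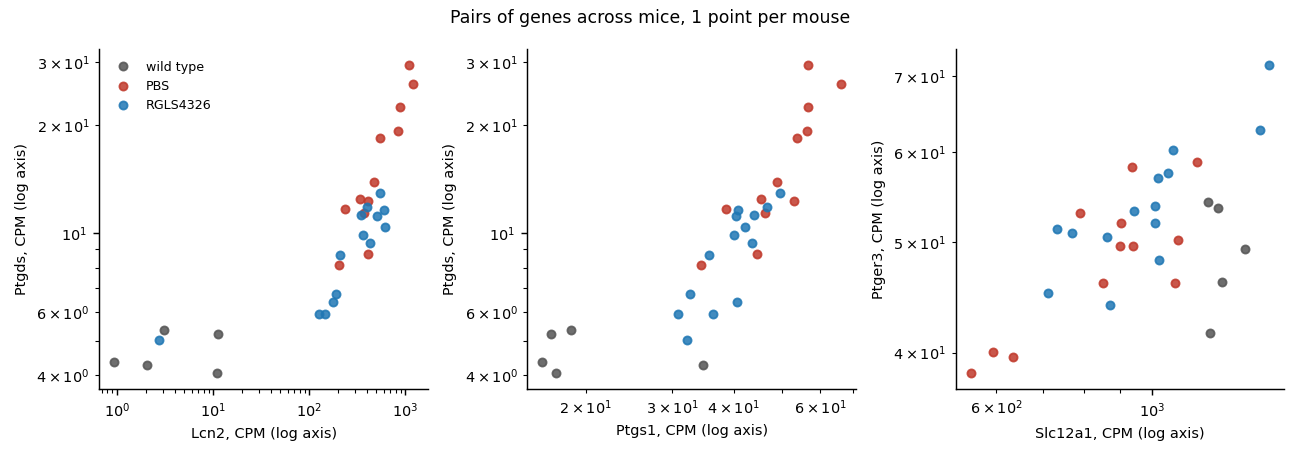
CPM of 3 pairs of genes on log axes, with 1 point per mouse coloured by group. Ptgds follows Lcn2 and Ptgs1 across the cystic kidneys, RGLS4326-treated mouse 9 lies with the wild-type mice at 2.76 CPM of Lcn2 and 5.01 CPM of Ptgds, and Ptger3 follows Slc12a1.

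Each gene's most similar profiles over the same 26 mice were found among the 11523 genes that averaged 5 CPM or more. They are given as a description, since the highest of so many correlations is large by choice. Ptgds was most like Cuedc1 (r = 0.96) and Stap2 (r = 0.96), an adaptor of kinase signalling. Ptgs1 was most like Fgfr2 (r = 0.94), a growth factor receptor, and Wnt9b (r = 0.93), a Wnt ligand of the collecting duct lineage. Ptger4 was most like Tgfbi (r = 0.95), a matrix protein induced by TGF-beta, and Cnn2 (r = 0.94), a calponin. Ptger3 was most like Slc12a1 (r = 0.81), the sodium-potassium-chloride cotransporter of the thick ascending limb, and Tmem207 (r = 0.78).

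For the remaining genes the leading values were lower. Ptger2 was most like Itgb7 (r = 0.75) and Sash3 (r = 0.73), both of lymphocytes, Hpgd like Igfbp5 (r = 0.80) and Atp2a3 (r = 0.78), and Pla2g4a like Cyth3 (r = 0.80) and Tacc1 (r = 0.79). Ptges was most like Psat1 (r = 0.80), of serine synthesis, and Mycl (r = 0.78), Ptgs2 like Gem (r = 0.69) and Nyap1 (r = 0.67), and Ptger1 like Msh6 (r = 0.62) and Rhpn2 (r = 0.60). Wnt9b itself averaged 6.91 ± 4.25 CPM (n = 5, SD) in wild type, 27.0 ± 11.5 CPM (n = 12, SD) with PBS and 15.1 ± 6.10 CPM (n = 14, SD) with RGLS4326. Slc12a1 averaged 1252 ± 61.7, 868 ± 196 and 997 ± 224 CPM in the same order.

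Markers of renal cell types were read in the same mice. Of 8 principal cell markers (collecting duct), 7 were higher and 1, Aqp4, lower in PBS-treated than in wild-type kidneys past both thresholds, and their summed level ran from 650 to 1073 CPM in wild type and from 1669 to 3347 CPM with PBS. With RGLS4326 the sum ran from 1030 to 2337 CPM, and 6 of the 8 were lower than with PBS at the adjusted p alone, Aqp2 past both thresholds (log2 fold change −0.56, adjusted p = 0.0265, quasi-likelihood test of edgeR). Among macrophage markers 8 of 9 tested were higher with PBS, with sums of 186 to 224 CPM in wild type, 526 to 901 CPM with PBS and 200 to 1081 CPM with RGLS4326. Fibroblast markers were higher for 7 of 9, with sums of 167 to 235, 555 to 1187 and 268 to 1224 CPM. Between RGLS4326 and PBS, 0 of 9 macrophage and 0 of 9 fibroblast markers passed the adjusted p of edgeR, and 0 of either had an unadjusted p under 0.05.

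Proximal tubule markers were lower for 9 of 10 with PBS, with sums of 19016 to 21266 CPM in wild type, 6054 to 11728 CPM with PBS and 8131 to 18186 CPM with RGLS4326, where 4 of 10 were higher than with PBS at the adjusted p alone. Of 8 markers of the thick ascending limb and macula densa, 3 were lower and 1 higher with PBS (sums of 7440 to 9748, 5096 to 7692 and 6187 to 8749 CPM), and 0 passed between RGLS4326 and PBS. Endothelial markers were lower with PBS for 3 of 6 (sums of 209 to 298, 131 to 260 and 122 to 330 CPM), and podocyte markers higher for 2 of 6 (sums of 187 to 329, 212 to 379 and 209 to 330 CPM). None of the lists had a gene at 0 in all 31 mice. Markers of mast cells, which make prostaglandin D2, passed the filter for 1 of 7 genes, Kit, which was 0.77 higher with PBS than in wild type (adjusted p = 2.03e-05) and lower with RGLS4326 than with PBS at the adjusted p alone (log2 fold change −0.35, adjusted p = 0.0276, both from the quasi-likelihood test of edgeR). Their sum ran from 15.9 to 23.4 CPM in wild type, from 23.6 to 41.8 CPM with PBS and from 18.9 to 29.4 CPM with RGLS4326, with only 23.4 against 23.6 CPM between the highest wild-type and the lowest PBS-treated mouse and with a single gene of the list past the filter. Adipocyte markers summed to 3.03 CPM or less in wild type, ran up to 73.2 CPM with a median of 0.661 CPM with PBS, and up to 91.6 CPM with a median of 7.04 CPM with RGLS4326. Past both thresholds 1 of these 5 markers was higher than in wild type with PBS and 3 with RGLS4326. The part of these cell types in the values of the 10 genes was not tested.

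The rest of eicosanoid metabolism was covered by 6 lists with 70 other genes, of which 67 were in the files and 54 were tested. In PBS-treated against wild-type kidneys 19 were higher and 14 lower past both thresholds, against 24.6% and 17.8% of all genes. Their median log2 fold change was 0.21, and that of all genes was 0.01. Of the 10 tested genes listed for release of arachidonic acid, 7 were higher. Among them were Pla2g5, a secreted phospholipase, at 2.27 and Pla2g15, a lysosomal one, at 1.25. The calcium-independent Pla2g6 was lower at −0.54 (log2 fold changes, each with adjusted p = 3.93e-08 or lower, quasi-likelihood test of edgeR). The 7 also include Anxa1, which encodes an inhibitor of phospholipase A2, at 1.83 (adjusted p = 8.73e-08, same test). It was named after its value was seen. Pla2g6 fell under the threshold on size without wild-type mice 3 and 4, at −0.50. Among other synthases, 3 of 10 were higher and 1 lower. Hpgds, the haematopoietic prostaglandin D synthase, read 1.10 ± 0.284 CPM (n = 5, SD) in wild type and 4.67 ± 0.947 CPM (n = 12, SD) with PBS, a log2 fold change of 2.09 (adjusted p = 5.41e-07, quasi-likelihood test of edgeR), so both prostaglandin D synthase genes were higher. Ptgis, the prostacyclin synthase, was 1.04 higher on the log2 scale. Fam213b, a prostamide and prostaglandin F synthase, was 2.60 lower on the log2 scale but varied widely in wild type, at 62.5 ± 40.8 CPM (n = 5, SD), and did not pass within series 3.

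Of 4 other prostanoid receptor genes tested, 2 were higher and 2 lower. The thromboxane receptor Tbxa2r fell by 0.70 and the prostaglandin F receptor Ptgfr by 0.60 on the log2 scale, whereas Ptgfrn, which encodes a regulator of that receptor, rose by 1.01 (adjusted p = 0.000237 or lower, quasi-likelihood test of edgeR). Tbxa2r fell under the threshold on size without wild-type mice 3 and 4, at −0.46. In transport and breakdown 1 of 7 was higher and 3 lower. The lower ones were the organic anion transporters Slc22a6 (−1.25) and Slc22a8 (−1.11), which carry prostaglandins in the proximal tubule, and the reductase Ptgr2 (−0.74). The higher one, Abcc4, an exporter of prostaglandins named after its value was seen, read 0.63 (adjusted p = 0.000284, same test).

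In the leukotriene arm 5 of 12 were higher and 2 lower. Alox5ap, the 5-lipoxygenase activating protein of myeloid cells, was 2.09 higher, while Ggt1 and Dpep1, brush border enzymes that also process leukotrienes, were 1.04 and 1.27 lower on the log2 scale. In the arm of cytochrome P450 products and epoxide hydrolases 1 of 11 was higher and 5 lower, among them Ephx2 (−0.73), Cyp2j11 (−0.99) and Cyp4a12a (−1.47).

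Between RGLS4326 and PBS, 1 of the 54 other genes was called, against a background of 0.935% higher and 1.22% lower. Cyp4a12a, an omega-hydroxylase of arachidonic acid in the proximal tubule, rose from 351 ± 135 CPM (n = 12, SD) to 523 ± 122 CPM (n = 14, SD), a log2 fold change of 0.58 (SE 0.16, adjusted p = 0.0223, quasi-likelihood test of edgeR). It was 0.14, 0.66 and 0.89 in the numbering series, in none of which any gene passed, and it missed without PBS-treated mouse 10 (adjusted p = 0.0506, same test). At the adjusted p alone 6 were higher and 2 lower, against 9.15% and 6.66% of all genes. They are named here after their values were seen. Higher were Cyp4a12a, Cyp2j5, Cyp2j11, Slc22a6, Pla2g6 and the co-chaperone and synthase gene Ptges3, and lower were Anxa1, which encodes an inhibitor of phospholipase A2, and Abcc4. Their log2 fold changes ran from −0.45 for Anxa1 to 0.58 for Cyp4a12a. Hpgds averaged 4.97 ± 1.72 CPM (n = 14, SD) with RGLS4326 and 4.67 ± 0.947 CPM with PBS.

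Against wild type, RGLS4326-treated kidneys had 16 of the 54 other genes higher and 12 lower, against 20.3% and 11.3% of all genes. Pla2g5 (1.84), Pla2g15 (1.03), Anxa1 (1.38), Hpgds (2.17), Ptgis (0.81), Alox5ap (1.97), the leukotriene receptor Cysltr1 (1.48), the prostacyclin receptor Ptgir (0.65) and Ptgfrn (0.69) were higher on the log2 scale. Ptgir lost its call without wild-type mouse 1 (0.55, adjusted p = 0.075) and without wild-type mouse 2 (0.47, adjusted p = 0.103, quasi-likelihood test of edgeR). Lower were Fam213b (−2.22), Tbxa2r (−0.68), Slc22a6 (−0.90), Slc22a8 (−0.89), Ptgr2 (−0.59), Ggt1 (−0.77) and members of the cytochrome P450 and epoxide list. Within numbering series 2 alone, 1 of the 54 passed, where 372 of all genes were called.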

How the data were processed

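The authors deposited raw counts per gene for each kidney. Per the labels and the methods of the study, stranded poly(A) libraries were sequenced as paired reads, trimmed with TrimGalore, mapped with STAR to GRCm38 and counted with HTSeq 0.6.1 from uniquely mapped reads. The gene annotation and strand setting of counting are not given in the sources used here. Groups and replicate numbers come from the sample labels. Lines of the files that name no gene were left out, of which reads in no gene came to 10.8 to 12.9% of reads assigned to a gene or to none.

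Genes passing filterByExpr were tested with edgeR 4.0.16 in R 4.3.3 (TMM scaling, quasi-likelihood test, 1 coefficient per group, all 31 mice, no covariate). Genes were called at the thresholds of the study, 0.05 for the adjusted p and 0.5 for the size of the log2 fold change. SEs were taken as the size of the log2 fold change over the square root of F. CPM use TMM-scaled library sizes. Correlations used Python 3.11.15, a pseudocount of 1 CPM and 100000 two-sided permutations within groups, adjusted over 55 pairs. Simulated counts of 15185 genes for RGLS4326 against PBS served as a check, in which 87 of 100 genes changed by 0.8 on the log2 scale and 98 of 100 changed by 1.5 were called, with 3 false calls.

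The 10 genes, the 6 other eicosanoid lists and the 9 cell type marker lists were chosen with earlier results of these data known. Genes outside the 10 were named by rule, as the 3 with the smallest p among those called in each list and comparison, and the 2 most similar profiles of each of the 10. Single cell type markers, the overlapping gene Ttc33 and genes so described in the text were named outside that rule, after their values were seen. Alternatives covered the filter, RLE size factors, DESeq2 1.42.0, the mice in the model, the numbering series, a replicate block, the pseudocount and leaving out each mouse. Replicate numbers do not pair the mice. The labels do not say whether mice came from separate litters or cages. Other dosing groups were not analysed here. Some other values are not reported here.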

Additional observations from a re-analysis of the deposited data

Results flagged for a closer look

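Wild-type mouse 2 had 34.6 CPM of Ptgs1, far from the 16.3 to 18.7 CPM of the other 4 wild-type mice. The gap to the next mouse was 0.872 of the whole range, above Dixon's 95% critical value of 0.71 for 5 mice. It was the only such value among the 10 genes in the wild-type group, the only group small enough for this check, and chance alone sets apart about 1 group in 20. Without that mouse the log2 fold change of Ptgs1 between PBS and wild type was 1.53 rather than 1.27, and both were called. The same mouse had the highest wild-type Ptgs2 and Ptges, at 2.61 and 24.9 CPM.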

How the results depend on the processing

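For PBS against wild type the 5 calls became 3 within numbering series 3 and 6 within series 2, with the replicate block and without wild-type mouse 2 or 5 (Ptges gained in each) or mouse 4 (Ptger2 gained). For RGLS4326 against PBS the single call, Ptgds, became 0 within series 1, 2 and 3 and 0 with the replicate number as a block. Calls over all genes went from 327 to 0 in each series and to 43 with the block. With the adjusted p alone, 3 of the 10 genes passed in the main fit of all mice, and only Ptger1 passed with the block. For RGLS4326 against wild type the 4 calls became 3 within series 1 (without Ptgs1), 1 within series 2 and 2 within series 3, and 5 without wild-type mouse 2 or 5 (Ptger1 gained). Of the other eicosanoid genes, the single treatment call became 0 within series 1, 2 and 3, 0 with the replicate block and 8 with the adjusted p alone, with 0 (without PBS-treated mouse 10) to 3 (without RGLS4326-treated mouse 2) when 1 mouse was left out, and the 28 calls against wild type became 1 within series 2 and 12 within series 3. The cause was not tested beyond the smaller number of mice in a series.

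Signs turned only for differences that were not called. For PBS against wild type, Ptgs2 (−0.03) read 0.0086 when genes averaging under 1 CPM were dropped, 0.0039 from a model of the 2 groups alone, 0.91 in series 2 and −0.32 to 0.51 with 1 mouse left out, and Ptger3 (−0.01) read 0.018 and 0.011 under the first 2 of these, 0.29 in series 3, 0.11 without wild-type mice 3 and 4 and −0.066 to 0.027 with 1 mouse left out. For RGLS4326 against PBS, series 1 gave −0.37 for Ptgs2, 0.083 for Ptges and 0.067 for Pla2g4a, and series 3 gave 0.10 for Ptger2. Against wild type, RGLS4326 gave −0.47 (series 1), −0.37 (series 3), −0.26 (without wild-type mice 3 and 4, chosen after seeing the data) and −0.11 to 0.71 (1 mouse left out) for Ptgs2, and −0.37 (series 2) for Ptger2.

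Of 1256 alternative values of the 10 genes, 1208 kept direction and side of the thresholds, 29 turned sign, 12 lost a call and 7 gained one. Of 1554 for the other named genes, 1508 kept both and 46 lost a call. Mice that share a number between the PBS and RGLS4326 groups did not vary in step (the correlation of their deviations averaged −0.085 in 12 pairs, with 4 over 0.1), so a call lost under the block is not read as a weaker effect. Leaving out 1 mouse gave 78 to 574 calls over all genes between RGLS4326 and PBS. Ptger2 has the fewest counts, 19 or fewer per mouse, and how far depth sets its error was not tested.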
